A study of Rattus norvegicus with 6 samples.

Results

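The 9 genes described here encode the transcription regulators of the integrated stress response. They were taken from the deposited table of 32883 genes by their symbols, which are Atf4, Atf3, Atf5, Ddit3, Cebpb, Cebpg, Trib3, Nupr1 and Jdp2. Each symbol matched 1 row, and all 9 rows had counts. RNA was sequenced from the vestibular epithelium of 6 Long-Evans rats. The 3 STREP animals received streptomycin, an aminoglycoside antibiotic that damages the sensory hair cells (HCs), injected under the skin daily (500 mg/kg) over 6 weeks that began on postnatal day 21, and the 3 Control animals received PBS. Each group held 2 males (replicates 1 and 2) and 1 female (replicate 3), and each library came from the pooled 2 utricles and 6 cristae of 1 animal, collected on the last day of treatment. The label codes of STREP replicates 1 and 2 share a number whose meaning is not given. They were treated as separate animals because the study describes 3 treated animals with 1 pooled sample from each. If they were not separate, the standard errors and p-values below are too small. Without STREP replicate 1, 4 of the 9 genes were called, and without STREP replicate 2, 5 were.

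In the integrated stress response, kinases that sense amino acid shortage, misfolded protein in the endoplasmic reticulum (ER), double-stranded RNA or mitochondrial and haem stress phosphorylate the translation factor eIF2 alpha. General translation then slows, while a few transcripts with upstream reading frames, those of Atf4, Atf5 and Ddit3 among them, are translated better. Their products are basic leucine zipper (bZIP) proteins, which bind DNA as pairs and induce further regulators, transporters, amino acid enzymes and, under lasting stress, death genes. Transcript counts measure neither eIF2 alpha phosphorylation nor the amount of any of these proteins.

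Libraries held between 48568191 and 59906048 counts in Control and between 29333584 and 33744909 in STREP animals, so depth was lower in every STREP library. Values are given as normalised counts, that is counts divided by the DESeq2 size factor of the library, and calls required both a DESeq2 adjusted p-value under 0.05 and a change of over 1.5-fold. Such counts were not scaled to transcript length, so levels were compared between animals and not between genes. The HC markers Myo7a, Pou4f3 and Otof were present in all libraries, with Myo7a at 3313 normalised counts or more. Of the 7 HC markers tested, Gfi1 was called higher (log2 fold change 1.20) and Pvalb lower (-1.44). Over all genes tested, 1.87% were called higher and 1.37% lower. Myo7a was lower at -0.49 (DESeq2 adjusted p = 0.0162), short of the fold threshold. Also not called were Calb2 (0.42) and Cdh23 (0.45), which stood higher, and Pou4f3 (-0.15) and Otof (-0.17), which stood lower. In whole tissue, a change in the number of cells of a type and a change in RNA per cell cannot be told apart, and this holds for every value below.

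Transcripts of 5 of the 9 regulators rose in the treated animals. Cebpb, Cebpg, Atf3, Trib3 and Atf4 were called higher in STREP animals and 0 were called lower, whereas among all 16250 genes tested 1.87% were called higher and 1.37% lower, or 3.24% in either direction. The median log2 fold change of the 9 genes was 0.79, against 0.0069 over all genes tested. The 9 were chosen with earlier results of these data known, so these comparisons describe the list and do not test it. For 7 of the 9, adding Ddit3 and Nupr1 to the 5, the lowest STREP animal lay above the highest Control animal, which was true of 9.12% of all genes tested. With libraries scaled to their total counts this number was 5, because Ddit3 and Nupr1 then overlapped. By edgeR (quasi-likelihood, genes filtered on low counts), 4 of the 9 passed as higher, without Trib3, where 0.924% of all genes it tested were called higher.

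**Figure D1:**
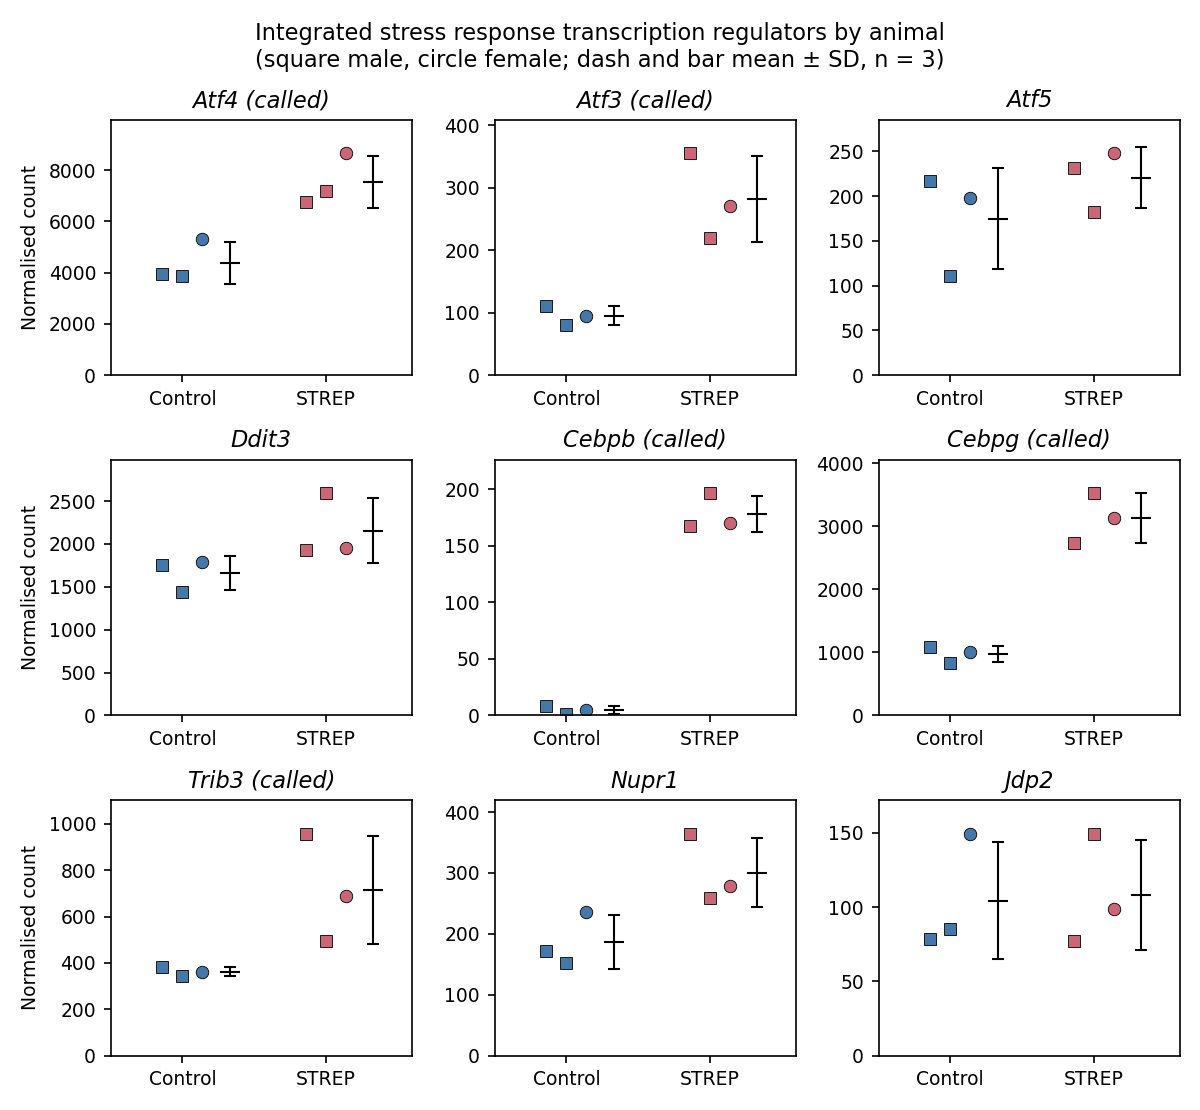
Normalised counts (y axis, from 0, a separate scale in each panel) of the 9 regulators in 3 Control and 3 STREP animals, with squares for males, circles for females, and a dash with a bar for the mean ± SD. The groups do not overlap in 7 panels, and they do in those of Atf5 and Jdp2.

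Upstream sequences of 8 of the 9 genes were found by symbol in RefSeq promoter windows of rat build GRCr8, and that of Atf3 was not. The counts were made on another build, Rnor6.0. The RefSeq entry for Nupr1 also carries the name Nupr1l1, which the deposited table uses for a separate row, so the match of that window to the counted gene is less certain. The 250 bases before each start site were searched on both strands for the C/EBP-ATF response element (CARE), at which ATF4 pairs with a C/EBP protein, as TGATGNAA. It was present in 3 of the 8, Trib3, Nupr1 and Jdp2, and in 3.4% of all 33469 windows. The 3 stretches are shown because they hold the element through which ATF4 is known to act. They read 5′ to 3′ along the gene, with the CARE match in capitals, and in Trib3 and Nupr1 it lies on the opposite strand.
Trib3, chr3:161275534-161275584, minus strand: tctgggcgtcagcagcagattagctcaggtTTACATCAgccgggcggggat
Nupr1, chr1:190645919-190645986, minus strand: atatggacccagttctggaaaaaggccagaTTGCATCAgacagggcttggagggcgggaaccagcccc
Jdp2, chr6:110993545-110993590, plus strand: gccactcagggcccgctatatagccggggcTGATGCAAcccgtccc

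The matches began 21 bases before the start of Trib3, 55 before that of Nupr1 and 16 before that of Jdp2. The full cyclic AMP response element, TGACGTCA, which CREB and ATF proteins bind, was found in 0 of the 8 windows and in 1.59% of all. Its core, TGACG, was found in 4 of the 8, those of Atf4, Cebpb, Trib3 and Jdp2, and in 18.2% of all windows. It occurred 3 times upstream of Cebpb, and how many of all windows held 3 was not counted. A link between these letters and the change of any gene was not tested. The Cebpb sequence is shown with the 3 matches in capitals.
Cebpb, chr3:176816755-176816978, plus strand: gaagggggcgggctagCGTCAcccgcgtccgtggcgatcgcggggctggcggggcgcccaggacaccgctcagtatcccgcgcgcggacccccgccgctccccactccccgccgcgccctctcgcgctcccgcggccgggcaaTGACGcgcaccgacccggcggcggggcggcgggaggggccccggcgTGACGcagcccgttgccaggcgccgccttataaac

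The AP-1 letters TGANTCA, bound by Jun and Fos proteins, occurred upstream of Atf5 and Ddit3 and in 6.34% of all windows. The window of Cebpg held none of the letters searched.

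Atf4 (ENSRNOG00000017801) encodes the activator at the head of the response. The 3 Control animals had 3941, 3860 and 5299 normalised counts, always listed from replicate 1 to 3, and the STREP animals had 6749, 7198 and 8672. The female had the highest normalised count of each group, and the lowest STREP value exceeded the highest Control value. With libraries scaled to their total counts, the STREP female was instead the lowest of its group, and the groups still did not overlap. The change was a log2 fold change of 0.79 ± 0.17 (SE), or 1.73-fold with a 95% interval of 1.37 to 2.18 (DESeq2 adjusted p = 0.000388). It was called in all 9 other settings and in all 6 fits that left out 1 animal.

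Atf5 (ENSRNOG00000020060), the nearest relative of Atf4 and a regulator of the mitochondrial unfolded protein response, had 217, 111 and 198 normalised counts in Control and 232, 182 and 248 in STREP animals. The groups overlapped, since the lowest STREP value lay below the values of 2 Control animals. Its log2 fold change was 0.33 ± 0.34 (SE, DESeq2 adjusted p = 0.826), with a 95% interval from 0.793-fold to 2.00-fold, so a rise as large as that of Atf4 would lie within it. In the RefSeq annotation Atf5 overlaps Nup62 and Il4i1, neither of which was called (log2 fold changes 0.28 and 0.16). The library kit does not mark strand, so reads in a shared stretch cannot be assigned by strand.

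Of the C/EBP members, Cebpb (ENSRNOG00000057347) encodes C/EBP beta, an activator of the amino acid response and of inflammatory genes. It had 13, 1 and 6 counts in Control libraries and 126, 182 and 114 in STREP libraries, or 7.98, 0.850 and 5.16 against 168, 197 and 171 normalised counts. It was near the detection floor of 3 counts in Control animals, below it in replicate 2, and at a similar level in all 3 STREP animals. Summed over animals, 422 counts stood against 20, a ratio of 35.0 after scaling to total counts, with a 95% interval of 22.4 to 57.9 that covers counting error only. The log2 fold change was 5.20 ± 0.56 (SE, DESeq2 adjusted p = 2.27e-17), and 14 of the genes tested had a smaller p-value. The fold is imprecise because the Control value rests on few counts, and leaving out 1 animal at a time gave between 4.73 and 5.89 on the log2 scale. Cebpb was called in every one of the 15 other fits.

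Myeloid cells also express Cebpb. Of the 11 macrophage and myeloid markers tested, 2 were called higher by DESeq2, where 1.87% of all genes tested were, and 0 lower. These were Cd163, at 106 ± 45.0 and 329 ± 106 normalised counts (SD, n = 3; log2 fold change 1.64, DESeq2 adjusted p = 0.00137), and Mrc1 (0.76, DESeq2 adjusted p = 0.00997). The edgeR test called 0 of the 11, of which 4 had an unadjusted p-value under 0.05 in DESeq2. The summed level of the list ran from 12957 to 13748 normalised counts in Control and from 13687 to 16445 in STREP animals, overlapping between groups. For 4 of the 11, every STREP animal lay above every Control animal, which was true of 9.12% of all genes tested. For 0 of the 11 every STREP animal lay below. The 4 were the called genes with C1qa (0.45) and C1qb (0.47), which were not called. Csf1r (0.06), Aif1 (0.05), Cd68 (0.28), C1qc (0.28) and Lyz2 (0.05), which stood higher, were not called either. Cx3cr1 (-0.77) and Ptprc (-0.05) stood lower and were also not called. The neutrophil markers Mpo and Elane were listed at 0 in all 6 libraries, and the other 4 markers of that list gave 0 calls with DESeq2, with 0 unadjusted p-values under 0.05. The part of these cells in the Cebpb values was not tested.

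Cebpg (ENSRNOG00000021144) encodes C/EBP gamma, a short C/EBP protein that pairs with ATF4 and lacks an activation domain of its own. It had 1089, 830 and 1006.2 normalised counts in Control and 2731, 3525 and 3132 in STREP animals, so the groups were far apart. The log2 fold change was 1.68 ± 0.17 (SE), or 3.21-fold with a 95% interval of 2.54 to 4.05 (DESeq2 adjusted p = 1.17e-19). Only 10 of the genes tested had a smaller p-value. The value changed little between fits, from 1.58 to 1.77 on the log2 scale with 1 animal left out, and Cebpg was called in all 15 other fits.

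Ddit3 (ENSRNOG00000006789) encodes CHOP, a C/EBP protein that pairs with ATF4 and with other C/EBP members and is known for promoting cell death under ER stress. Its normalised counts were 1755, 1438 and 1787 in Control and 1928, 2591 and 1948 in STREP animals. STREP replicates 1 and 3 lay just above the highest Control value, and replicate 2 stood well above both. Ddit3 was not called (log2 fold change 0.38 ± 0.18 SE, unadjusted p = 0.0350, DESeq2 adjusted p = 0.343), with a 95% interval from 1.02-fold to 1.66-fold. It was called in 0 of the other 15 fits, and without STREP replicate 2 its log2 fold change was 0.22. Ddit3 overlaps Mars, the gene for cytosolic methionyl-tRNA synthetase, in the RefSeq annotation. Mars rose from 4581 ± 197 to 7225 ± 625 normalised counts (SD, n = 3; log2 fold change 0.66, DESeq2 adjusted p = 3.56e-05), and how far shared reads enter either value was not tested.

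Among the other C/EBP genes, Cebpd (-0.11) and Cebpa (-0.79) were not called. Cebpa had at most 29.8 normalised counts, so its value is imprecise.

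Atf3 (ENSRNOG00000003745) encodes a stress-induced bZIP protein that represses or activates its targets according to its partner. It had 110, 80.8 and 94.6 normalised counts in Control and 355, 219 and 271 in STREP animals. Every STREP animal was at 219 or above and every Control animal at 110 or below. The log2 fold change was 1.56 ± 0.32 (SE), or 2.95-fold with a 95% interval of 1.92 to 4.53 (DESeq2 adjusted p = 8.11e-05), and the gene was called in all 15 other fits. Jdp2 (ENSRNOG00000008224), the closest relative of Atf3 and a repressor that pairs with Jun proteins, had 78.6, 85.0 and 150 normalised counts in Control and 77.2, 149 and 98.7 in STREP animals. The groups overlapped over nearly their whole range. Jdp2 was not called, at 0.06 ± 0.44 (log2, SE; DESeq2 adjusted p = 0.989), with a 95% interval from 0.573-fold to 1.89-fold, and its sign changed without Control replicate 1 or 2 or without STREP replicate 2.

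Atf3 also responds to tissue handling, as immediate early genes do within minutes, and to nerve injury. Of 16 immediate early genes tested, DESeq2 called 0, with 1 unadjusted p-value under 0.05, and edgeR called 0 of the 13 it tested. Fos was at 316 ± 60.4 and 427 ± 76.7 normalised counts (SD, n = 3; log2 fold change 0.44, DESeq2 adjusted p = 0.523) and Jun at 0.11 (DESeq2 adjusted p = 0.892). The summed level of this list ran from 18310 to 21900 normalised counts in Control and from 18084 to 21499 in STREP animals. Of 8 Schwann cell and neuron markers, Sox10 (0.95) and Tubb3 (1.28) were called higher, where 1.87% of all genes tested were, and 0 lower. The summed level of the 8 ran from 215389 to 296210 in Control and from 119169 to 243282 in STREP animals. The part of either in the Atf3 values was not tested. DESeq2 and edgeR called 0 of the 8 supporting cell, 6 fibroblast, 5 melanocyte and dark cell and 4 endothelial markers tested, for which 2, 1, 2 and 0 unadjusted p-values were under 0.05.

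Trib3 (ENSRNOG00000007319) encodes a pseudokinase that ATF4 and CHOP induce and that restrains ATF4 in return. It had 384, 345 and 360 normalised counts in Control and 959, 496 and 691 in STREP animals. The Control animals lay within a narrow range, with a coefficient of variation of 5.33%, whereas the STREP animals were spread, at 32.5%. The log2 fold change was 0.98 ± 0.26 (SE), or 1.97-fold with a 95% interval of 1.38 to 2.80 (DESeq2 adjusted p = 0.00758). This call was the least stable of the 5. It was lost with both edgeR fits (adjusted p = 0.0772 with the count filter), with libraries scaled to their totals, among males alone, and without Control replicate 2 or 3 or STREP replicate 1 (0.71, DESeq2 adjusted p = 0.122). Its relatives Trib1 (0.06) and Trib2 (-0.02) were not called.

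Nupr1 (ENSRNOG00000019206) encodes a small stress-induced chromatin protein that ATF4 activates. It had 172, 152 and 236 normalised counts in Control and 365, 259 and 278 in STREP animals. The groups did not overlap, although the Control female came close to STREP replicate 2. It was not called (log2 fold change 0.69 ± 0.29 SE, unadjusted p = 0.0185, DESeq2 adjusted p = 0.237), had a 95% interval from 1.08-fold to 2.40-fold, and it was called in 0 of the other 15 fits.

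**Figure D2:**
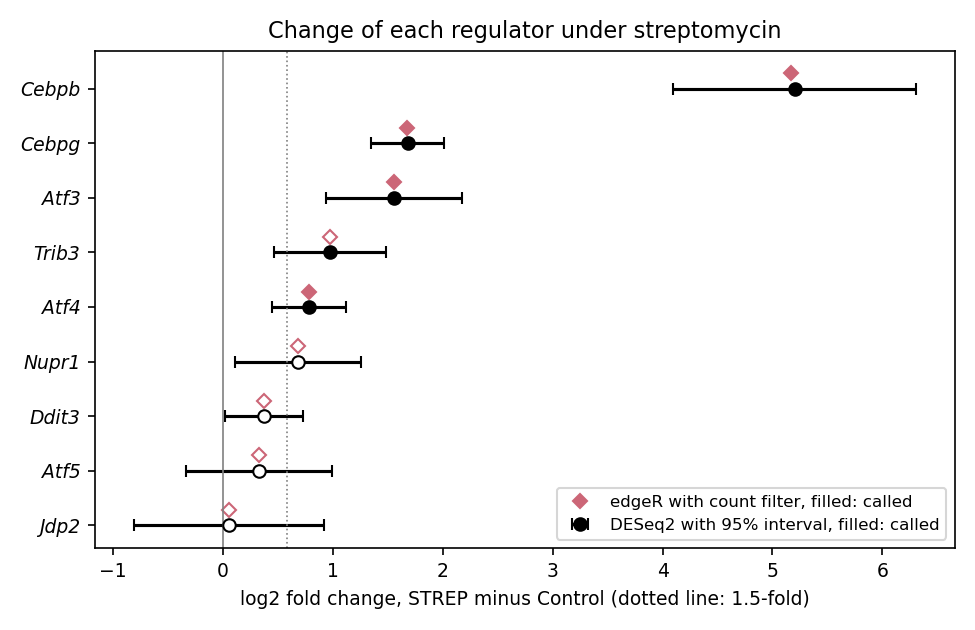
Log2 fold change of each regulator (x axis, STREP minus Control) from DESeq2 (circles, bars for the 95% interval) and from edgeR with a count filter (diamonds), filled where called. Cebpb stands at 5.20, the other called genes between 0.79 and 1.68, and the intervals of Atf5 and Jdp2 span 0.

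**Figure D3:**
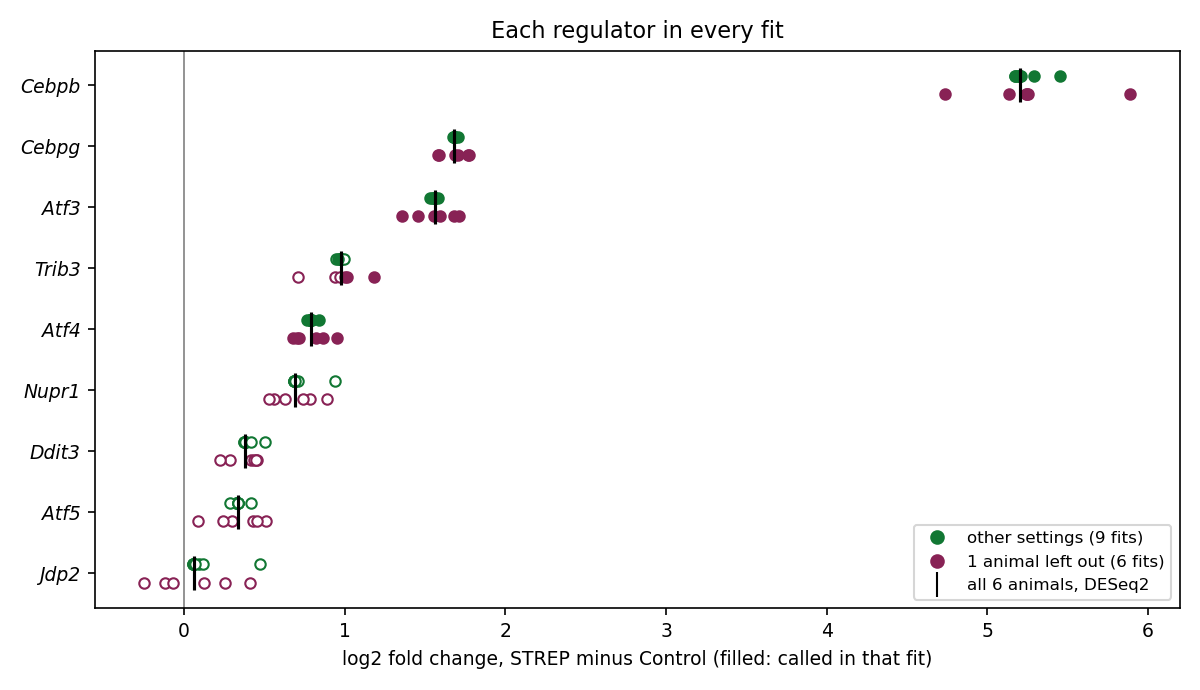
Log2 fold change of each regulator (x axis) in 9 other settings (green), in 6 fits with 1 animal left out (purple) and in the DESeq2 fit of all animals (black line), filled where called. Values of Atf4, Atf3, Cebpb and Cebpg are filled throughout, those of Trib3 in part, and Jdp2 lies on both sides of 0.

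The STREP animals did not rank alike over the 9 genes. By normalised count, replicate 1 was the highest of the 3 for Atf3, Trib3 and Nupr1, replicate 2 for Ddit3, Cebpb, Cebpg and Jdp2, and the female for Atf4 and Atf5. The place of the female depended on the scaling. With libraries scaled to their total counts it was the lowest for Atf4 and Atf5, and replicate 2 was the highest for Atf4 and replicate 1 for Atf5. Among Control animals, replicate 2 had the lowest value for 8 of the 9 genes, all but Jdp2, where it was the lowest for 33.7% of all genes tested. Without it, 4 of the 9 regulators were called higher. The change under streptomycin did not differ detectably between the sexes for any of the 9 in a DESeq2 fit with an interaction of sex and group (smallest adjusted p = 0.999, 0 unadjusted p-values under 0.05). That test rests on 1 female per group. Its precision was low, with a 95% interval of the female-minus-male difference from -0.66 to 0.40 for Atf4 and from -3.14 to 1.00 for Jdp2, on the log2 scale.

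Ratios of raw counts between regulators in the same animal do not depend on the scaling of the libraries. Their absolute size depends on transcript length, so only the groups were compared, for 5 pairs chosen after the values had been seen. The ratio of Cebpg to Ddit3 was 0.620, 0.577 and 0.563 in Control and 1.42, 1.36 and 1.61 in STREP animals. The difference between groups was 1.31 on the log2 scale, with SDs of 0.07 in Control and 0.13 in STREP animals (n = 3, exact two-sided permutation p = 0.1, adjusted p = 0.25 over the 5 pairs). The ratio of Atf3 to Jdp2 was 1.41, 0.950 and 0.632 in Control and 4.603, 1.47 and 2.74 in STREP animals, a difference of 1.49 (exact permutation p = 0.1, adjusted p = 0.25). With 3 animals a group, 0.1 is the smallest p-value this test can give. The ratios of Atf4 to Atf5, Trib3 to Ddit3 and Atf4 to Ddit3 overlapped between groups, with differences of 0.41, 0.56 and 0.43 (exact permutation p = 0.3, 0.4 and 0.2).

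**Figure D4:**
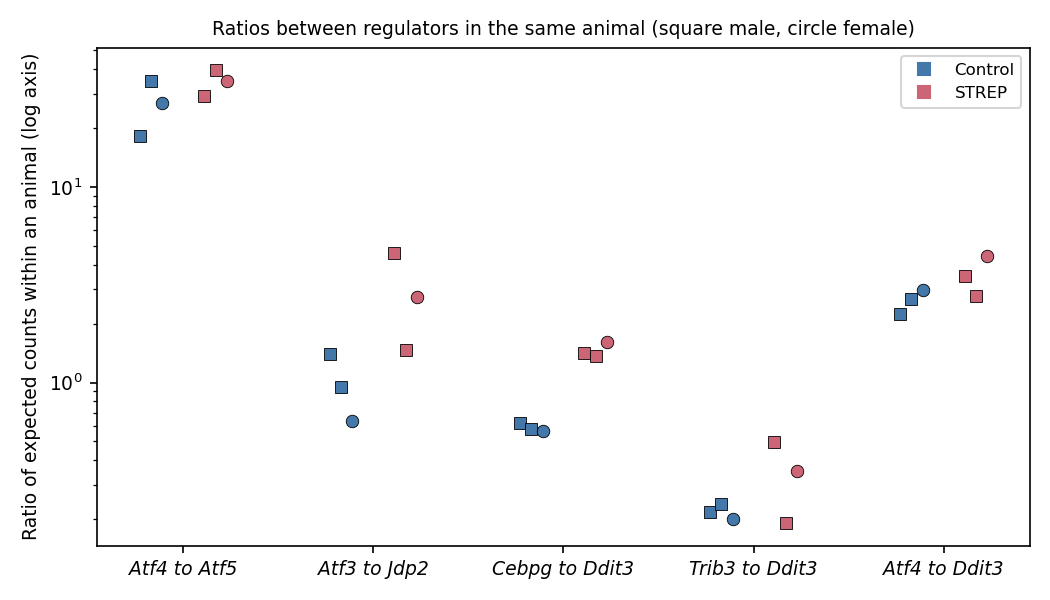
Ratio of expected counts between pairs of regulators in the same animal (y axis, log scale), with squares for males and circles for females in Control (blue) and STREP (red). The groups separate for Atf3 to Jdp2 and for Cebpg to Ddit3, and overlap in the other 3 pairs.

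The remaining genes of the pathway were read from lists written with earlier results of these data known. Upstream of the regulators, 0 of the 4 eIF2 alpha kinases were called by DESeq2 or edgeR, with 1 unadjusted p-value under 0.05. The log2 fold changes were -0.07 ± 0.14 (SE) for Eif2ak1 (HRI, the haem-regulated kinase), 0.06 ± 0.19 for Eif2ak2 (PKR, which senses double-stranded RNA), 0.14 ± 0.20 for Eif2ak3 (PERK, the ER kinase) and -0.52 ± 0.21 for Eif2ak4 (GCN2, which senses uncharged tRNA). Eif2ak4 had 2152, 2037 and 1705 normalised counts in Control and 1246, 1774 and 1092 in STREP animals, and its adjusted p-value was 0.187. The kinases are regulated mainly as proteins, which transcript counts do not measure. The 8 subunits of eIF2 and of its exchange factor eIF2B gave 0 calls and had a median log2 fold change of -0.06. The 5 genes of the eIF2 alpha phosphatase also gave 0 calls, among them its stress-induced subunit Ppp1r15a (GADD34, 0.26 ± 0.16 SE, DESeq2 adjusted p = 0.561) and its constitutive one, Ppp1r15b (0.20). For both lists edgeR called 0, and 0 unadjusted p-values were under 0.05. The same held for the 3 genes tested from a list of activators and other regulators of the kinases, namely Gcn1l1, Oma1 and Impact.

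Downstream, 8 of 25 enzymes, transporters and secreted factors that ATF4 is known to induce were called higher, where 1.87% of all genes tested were, and 0 lower. The list had a median log2 fold change of 0.57, which did not move when Pycr1, at 0 in all Control libraries, was set to its bound. The 6 with the smallest adjusted p-values were Mthfd2 (2.80), Chac1 (2.26), Asns (0.74), Fgf21 (3.31), Slc7a5 (1.00) and Aldh18a1 (1.04). They serve mitochondrial folate metabolism, glutathione breakdown, asparagine synthesis, hormone signalling, large neutral amino acid transport and proline synthesis. The edgeR test called 5 of the 23 it tested higher. DESeq2 called 5 without STREP replicate 1 and 11 without Control replicate 1. Of the death effectors, 0 of 3 tested were called by either tool, with 1 unadjusted p-value under 0.05. Bbc3 and Tnfrsf10b were also listed, but the deposited table has no row under these symbols, so the count does not cover them. Bcl2l11, a pro-apoptotic BH3 protein, stood at 0.50 ± 0.20 (log2, SE; DESeq2 adjusted p = 0.200).

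The ATF6 and XBP1 arm of the ER unfolded protein response was also read, as was the separate mitochondrial unfolded protein response. Gene counts do not show how Xbp1 transcripts were spliced. In the ATF6 and XBP1 arm, which raises ER chaperones, 0 of 14 genes were called by DESeq2 or edgeR and 0 had an unadjusted p-value under 0.05, with a median log2 fold change of 0.03. Hspa5, the main ER chaperone, had a log2 fold change of -0.06 ± 0.19 (SE), and Xbp1 one of -0.05 ± 0.15. Of 8 genes of the mitochondrial unfolded protein response, 1 was called higher, where 1.87% of all genes tested were, and 0 lower. It was Hspa9, a mitochondrial chaperone of the HSP70 family, which went from 8088 ± 178 to 13128 ± 1657 normalised counts (SD, n = 3; log2 fold change 0.70, DESeq2 adjusted p = 3.64e-05). Of 29 other bZIP genes tested, 3 were called higher, against the same 1.87% of all genes, and 0 lower. These were Jund (1.59, from 36.0 ± 13.3 to 109 ± 28.2 normalised counts), an AP-1 subunit, Mafg (0.93), a small MAF partner of NRF proteins, and Dbp (0.93), a clock output gene. Among males alone, 1 of the 29 was called.

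**Figure D5:**
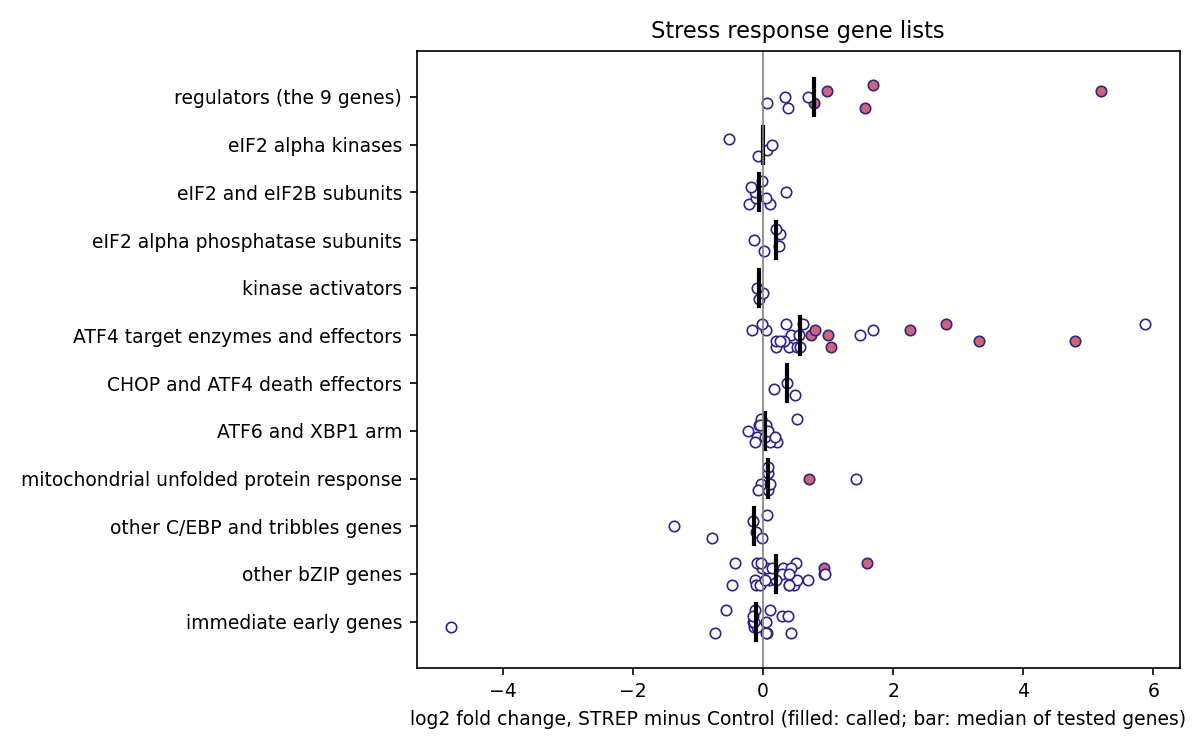
Log2 fold change (x axis, STREP minus Control) of every tested gene in 12 lists (rows), filled where called by DESeq2, with a bar at the median of each list. Called genes lie in the rows of the regulators (5 of 9), the ATF4 targets (8 of 25), the other bZIP genes (3 of 29) and the mitochondrial response (1 of 8), and the outlying open points at 5.87 (Pycr1) and -4.79 (Npas4) rest on few counts.

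The genes most like 4 of the regulators were sought among 12123 other genes with a mean of at least 100 normalised counts, by the root mean square difference of their log2 values from the Control mean over the 6 animals. This describes a profile and tests nothing. Nearest to Atf4 were Tmem130 (difference 0.07), Slc2a4 (0.10) and Rad23b (0.10), and nearest to Atf3 were Jmy (0.15), Stbd1 (0.19) and Faf1 (0.23), all 6 called higher. Nearest to Trib3 were Slc7a5 (0.17), which was called, and Ppm1j (0.17) and Mt2A (0.19), which were not. Cebpb, at means of 4.66 in Control and 178 in STREP animals, fell short of that minimum itself, so genes at its level were not searched. Among the genes searched, the nearest to Cebpb were LOC100912427 (1.58), Fkbp5 (1.67) and Mthfd2 (1.84), all farther off than those above. Whether a gene of lower level comes closer was not tested.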

How the data were processed

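RNA was sequenced by a Smart-seq2 type protocol, which does not mark strand. The authors aligned reads with STAR 2.5.3a to Rnor6.0 and quantified genes with RSEM (1.3.0 in the submitters' processing notes). They deposited expected counts, that is estimated reads per gene, unscaled between libraries. The deposited table held 0 values that were not whole. RSEM divides reads among similar genes, and overlapping genes may share them.

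Groups and sex came from the labels. Replicates were numbered in deposition order and pair no animals. Nothing says whether animals were littermates, and the codes of STREP replicates 1 and 2 share a number of unstated meaning. In R 4.3.3, DESeq2 1.42.0 was fitted to all genes with group as the factor, median-of-ratios size factors and Benjamini-Hochberg adjustment over the 16250 genes left by independent filtering. Adjusted p-values are from DESeq2 unless edgeR 4.0.16 (quasi-likelihood, TMM) or an exact permutation test is named. The procedure was tested on simulated counts. The floor of 3 counts came to between 0.0501 and 0.102 CPM. Floors and counting intervals cover counting error only, since reads carry no molecular identifiers.

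The 9 genes, the lists and the naming rule were chosen with earlier results of these data known. The rule named all 9 genes, fixed relatives and kinases, called list genes (the 6 with the smallest adjusted p-values where more) and the 3 nearest profiles of Atf4, Atf3, Cebpb and Trib3. Mars, Nup62, Il4i1, Eif2ak4's single values, Bcl2l11, Csf1r, Aif1, C1qa, C1qb, C1qc, Cd68, Lyz2, Cx3cr1, Ptprc, Myo7a, Pou4f3, Otof, Calb2, Cdh23, Gcn1l1, Oma1, Impact, Pycr1 and Npas4 were added after values were seen. Alternatives were edgeR with and without a filter, TMM factors, library totals, a minimum of 10 counts in 3 libraries, independent filtering turned off, a sex term, only the males, thinning to the smallest total, and leaving out each animal.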

Additional observations from a re-analysis of the deposited data

How the results depend on the processing

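The number of regulators called higher was 5, and it was 4 or 5 in all 15 other fits, from 4 to 5 with 1 animal left out. The number with no overlap was 7, was 5 with libraries scaled to their totals, and ran from 7 to 8 with 1 animal left out. Over all genes, 527 were called, against 264 with edgeR and a filter, 295 with edgeR and no filter, and 309 with library totals. Of 81 values of single regulators under other settings, 77 kept direction and call and 4, all of Trib3, lost the call. Leaving out 1 animal gave 54 values, of which 48 kept both, 3 of Trib3 lost the call, and Jdp2, which was not called, changed sign in 3, at -0.12 and -0.07 without Control replicates 1 and 2 and -0.25 without STREP replicate 2 (range -0.25 to 0.41). The cause was not tested. Called ATF4 targets numbered 8, but 5 of 23 tested with edgeR, 5 without STREP replicate 1 and 11 without Control replicate 1, and called bZIP genes 3, but 1 among males alone. Depth limits Cebpb, which had 20 Control counts in all. No paired analysis was possible because the labels give no replicate numbers shared between groups.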
